A study of Caenorhabditis elegans with 6 samples.

Results

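Cytochrome P450 (cyp), short-chain dehydrogenase (dhs) and flavin-containing monooxygenase (fmo) genes were examined in sorted RIS neurons of Caenorhabditis elegans and in whole larvae. Members were chosen by symbol alone, as cyp-, dhs- or fmo- followed by a digit, which gave 97 of the 12072 genes in the authors' deposited table. They comprise 64 cyp, 28 dhs and 5 fmo genes, of which 2, cyp-31A1 and cyp-25A5, are listed there as pseudogenes. The P450 gene daf-9 has no cyp symbol and was not counted as a member.

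The labels give 3 libraries of RIS cells from the RIS::mKate strain, in which the flp-11 promoter drives the red marker, and 3 libraries of whole N2 larvae. Both groups were L1 larvae, obtained from hypochlorite-treated adults and hatched overnight in M9 medium. Larvae of the marker strain were dissociated and RIS cells were collected in Trizol by flow cytometry, whereas N2 larvae were frozen over liquid nitrogen as all cells. The same low-input SMART-Seq kit for cDNA is listed for both groups. Strain and sorting therefore differ together with cell type and cannot be told apart from it. The sorting notes name AVK and mCherry, while titles, source and cell type name RIS.

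P450 enzymes are heme proteins of the endoplasmic reticulum or mitochondria that insert an oxygen atom into lipids, steroids and foreign compounds, with electrons passed on by a reductase. Short-chain dehydrogenases oxidize or reduce alcohol and ketone groups of steroids, fatty acids, sugars and retinoids, and flavin monooxygenases oxygenate nitrogen and sulfur atoms. In the worm many of these genes are used in the intestine and hypodermis, the main sites of fat storage and detoxification.

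Markers of RIS were looked at first. Their list was chosen with earlier results of these data known, so it is no independent check of the cells. All 7 measured genes of the RIS marker list were higher in RIS in the authors' deposited table, with a median log2 fold change of 7.22, and srx-9 was not analysed here. Among them flp-11 also gave the promoter used for sorting. The table gives 1 fold change per gene and no values per library, so levels, depth and spread of each library are unknown. No label says that libraries came from separate cultures, so p-values reflect the spread of these libraries alone, and that spread may be technical. The number of RIS libraries behind the test is itself unsettled, since genes without RIS reads lost 1 degree of freedom where 3 empty libraries would cost 2.

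The oxidation enzymes were mostly lower in RIS than in whole larvae. Of the 97 genes 54 (55.7%) fell and 3 rose at an adjusted p under 0.05, as listed by the authors' deposited table, where 26.4% of all genes were lower and 9.84% were higher. Their median log2 fold change was −3.04 in the authors' deposited table, and that of all genes was −0.78. Besides 10 falls to few or no RIS reads, 36 were at least 8-fold and 13 at least 32-fold, these 13 all cyp genes. P450 genes had the largest share lower, 40 of 64 (62.5%), followed by 12 of 28 dhs genes (42.9%) and 2 of 5 fmo genes (40%). All 3 rises were cyp genes. Since the typical gene lies below 0, fold changes were also set against the all-gene median, where 41 members (42.3%) were lower and 4 higher. Of all genes 20.3% and 16.6% were. On that scale 34 of 64 cyp genes (53.1%) were lower. The dhs genes, 6 of 28 (21.4%), and the fmo genes, 1 of 5 (20%), lay near the share of all genes.

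**Figure D1:**
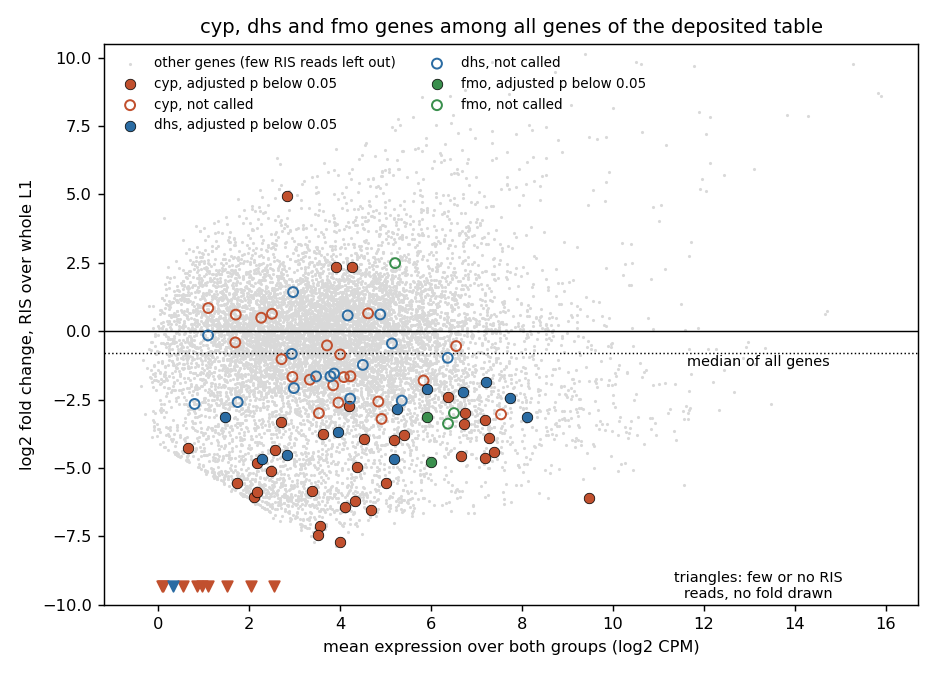
Mean log2 CPM over both groups (x) against the log2 fold change of RIS over whole L1 larvae (y) for cyp, dhs and fmo genes in colour and other genes in grey; filled points passed an adjusted p below 0.05. Of the 97 coloured genes 85 lie below 0, and the 10 at few or no RIS reads are drawn as triangles at the bottom without a fold.

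For 10 of the 54 falls the RIS libraries held no reads or about 3 at most. Only genes more than 8-fold lower in RIS were counted in this state, 7.09% of all genes. Fold changes of such genes depend on a constant of the authors' fit, so none is given for them. Folds of members little above those few reads depend on it in part, such as cyp-13A1, cyp-13A12, cyp-14A2, cyp-14A4, cyp-33D3 and cyp-35A5. The 10 few-read members are cyp-33C1 and cyp-34A10, both without RIS reads, and cyp-29A4, cyp-33C2, cyp-33C3, cyp-33C12, cyp-34A1, cyp-35A4, cyp-35D1 and dhs-24. Their place below the median does not depend on that constant, and the median over all 97 genes is the same with them at the lowest rank. Members were not confined to low expression. Above the median of mean expression 30 of 56 (53.6%) were lower, and below it 24 of 41 (58.5%), against 23.7% and 29% of all genes on those sides.

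The cyp-35 genes, which are induced by drugs and other foreign compounds in the intestine and affect fat stores, were lower almost throughout. Of 9 measured members 8 fell and 0 rose. The largest fold among members with RIS reads above the few-read positions was that of cyp-35A5, at −7.72 on the log2 scale (211-fold, approximate 95% interval −10.52 to −4.92, adjusted p = 0.00531) per the authors' deposited table. Its log2 fold change plus log2 CPM was −3.73, little above the few-read limit of −4.29, so the size of this fold is uncertain. Next to cyp-35A5 the authors' deposited table gave −6.55 for cyp-35A3 (adjusted p = 0.00580) and −6.42 for cyp-35A1 (adjusted p = 0.0184). A smaller fold was listed for cyp-35B2 (−4.95), cyp-35C1 (−4.65) and the insulin-pathway target cyp-35B1 (−3.97) in the authors' deposited table. The thiabendazole-oxidizing enzyme gene cyp-35D1 and cyp-35A4 fell to few RIS reads. The one exception was cyp-35A2, just outside the threshold (−3.04, interval −5.40 to −0.68, adjusted p = 0.0518) per the authors' deposited table. When genes below the median of mean expression were left out, so that fewer genes were tested, it passed (adjusted p = 0.0483). It did not pass without genes at few RIS reads (adjusted p = 0.0597) or against the all-gene median (adjusted p = 0.122).

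The cyp-13 and cyp-14 genes showed large folds too. Of 8 cyp-13 genes 6 fell and 0 rose, with a median log2 fold change of −5.12 in the authors' deposited table. The enzyme encoded by cyp-13A12 makes oxygenated derivatives of polyunsaturated fatty acids that drive the locomotor response to reoxygenation. It was listed at −7.11 (interval −10.45 to −3.77, adjusted p = 0.00903) per the authors' deposited table. Others were cyp-13A10 (−6.20), cyp-13A1 (−6.06), cyp-13A6 (−5.83), cyp-13A2 (−4.42) and cyp-13B1 (−3.96) in the authors' deposited table. Uncalled were cyp-13A5 (−1.80, adjusted p = 0.112) and cyp-13A3 (−1.67, adjusted p = 0.169) per the authors' deposited table. Of 4 cyp-14 genes 3 fell, with cyp-14A2 at −7.46, cyp-14A5 at −6.09 and cyp-14A4 at −5.57 in the authors' deposited table. Of these cyp-14A5 had a mean of 710 CPM over both groups. The fourth, cyp-14A1, had a wide interval (−0.52, −4.26 to 3.23, adjusted p = 0.828) per the authors' deposited table.

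The cyp-29 genes and the 3 cyp-33E genes include further enzymes of polyunsaturated fatty acids. All 3 measured cyp-29 genes fell. The epoxygenase and hydroxylase gene cyp-29A3 fell by 3.77 on the log2 scale (interval −5.86 to −1.67, adjusted p = 0.0159) per the authors' deposited table, cyp-29A2 fell too (−3.40, adjusted p = 0.0368), and cyp-29A4 lay at few reads. The eicosanoid-forming enzyme gene of the pharynx, cyp-33E2, was not called (−1.65, interval −4.67 to 1.37, adjusted p = 0.362) per the authors' deposited table. Its relative cyp-33E1 was listed at −1.68 (adjusted p = 0.117) and cyp-33E3, which lies next to cyp-33E2, fell (−3.30, adjusted p = 0.0298) per the authors' deposited table. Intervals of the 3 cyp-33E genes overlap.

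The cyp-33 and cyp-34 families were divided mostly between falls and uncalled genes. Of 15 cyp-33 genes 8 fell and 0 rose, and of 9 cyp-34 genes 4 fell and 1 rose. Called or not, 13 of the 15 and 8 of the 9 lay below 0. Besides the few-read genes, the authors' deposited table listed cyp-33D3 at −5.88, cyp-33C7 at −4.83 and cyp-33A1 at −3.23 among the falls. Not called were cyp-33C9 (0.65), cyp-33C5 (0.64), cyp-33D1 (−0.41), cyp-33C4 (−2.57) and cyp-33C8, the last at a mean of 93.9 CPM and a log2 fold change of −0.54 (interval −2.34 to 1.25) in the authors' deposited table. In the cyp-34 family the falls with a fold were cyp-34A9, a gene of the insulin-signalling response (−3.91, adjusted p = 0.0290), and cyp-34A8 (−2.99, adjusted p = 0.00670) per the authors' deposited table.

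The other families have few members. Of the families with 1 measured gene, cyp-43A1 had the smallest adjusted p of all 97 genes (−5.55, 46.9-fold, interval −7.29 to −3.82, adjusted p = 0.00415) per the authors' deposited table. The mitochondrial-type P450 gene cyp-44A1 (−3.80, adjusted p = 0.00682) and cyp-23A1 (−4.27, adjusted p = 0.0303) fell as well in the authors' deposited table. The gene cyp-36A1, which acts below EGL-9 and HIF-1 in stress resistance and behaviour, fell by 4.35 on the log2 scale (interval −6.27 to −2.42, adjusted p = 0.00765) per the authors' deposited table. Both cyp-32 genes fell, cyp-32A1 (−5.1) further than cyp-32B1 (−2.41), with overlapping intervals in the authors' deposited table. Of the cyp-37 genes, cyp-37B1 fell (−4.55, interval −6.37 to −2.73) and cyp-37A1 was not called (−0.85, interval −2.74 to 1.04) in the authors' deposited table. The single cyp-42 gene, cyp-42A1, was not called (−1.02, adjusted p = 0.348) per the authors' deposited table.

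The 3 rises were cyp-31A2, cyp-31A1 and cyp-34A6. With its near-identical relative cyp-31A3, cyp-31A2 encodes an enzyme needed for the lipid layer of the eggshell. It rose on the log2 scale by 4.94 (30.7-fold, interval 3.09 to 6.80, adjusted p = 0.00564) per the authors' deposited table, with 7.12 CPM on average over both groups. Since cyp-31A3 was not analysed here and shares sequence with it, the assignment of these reads is uncertain. The pseudogene cyp-31A1 rose as well (2.35, interval 1.14 to 3.56, adjusted p = 0.0120), and so did cyp-34A6 (2.34, 5.05-fold, interval 1.05 to 3.62, adjusted p = 0.0153), per the authors' deposited table. Markers of the germline, where the eggshell P450s are used, were not called in either direction for any of 5 measured genes by the authors' edgeR-format test, and 1 was lower at an unadjusted p below 0.05. Of these 5 markers 3 lay below 0 and 2 above. Both measured cyp-31 genes were higher, 1 of them a pseudogene, and a part of germline RNA in this was not tested.

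Of the 5 cyp-25 genes 4 were not called. The one fall was cyp-25A2 (−2.73, interval −4.20 to −1.26, adjusted p = 0.0142) per the authors' deposited table. For the others the authors' deposited table gave 0.85 for the pseudogene cyp-25A5, 0.61 for cyp-25A4, 0.49 for cyp-25A3 and −1.77 for cyp-25A1. Intervals of these uncalled genes were up to 7.71 wide on the log2 scale, so large differences in either direction were not resolved.

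**Figure D2:**
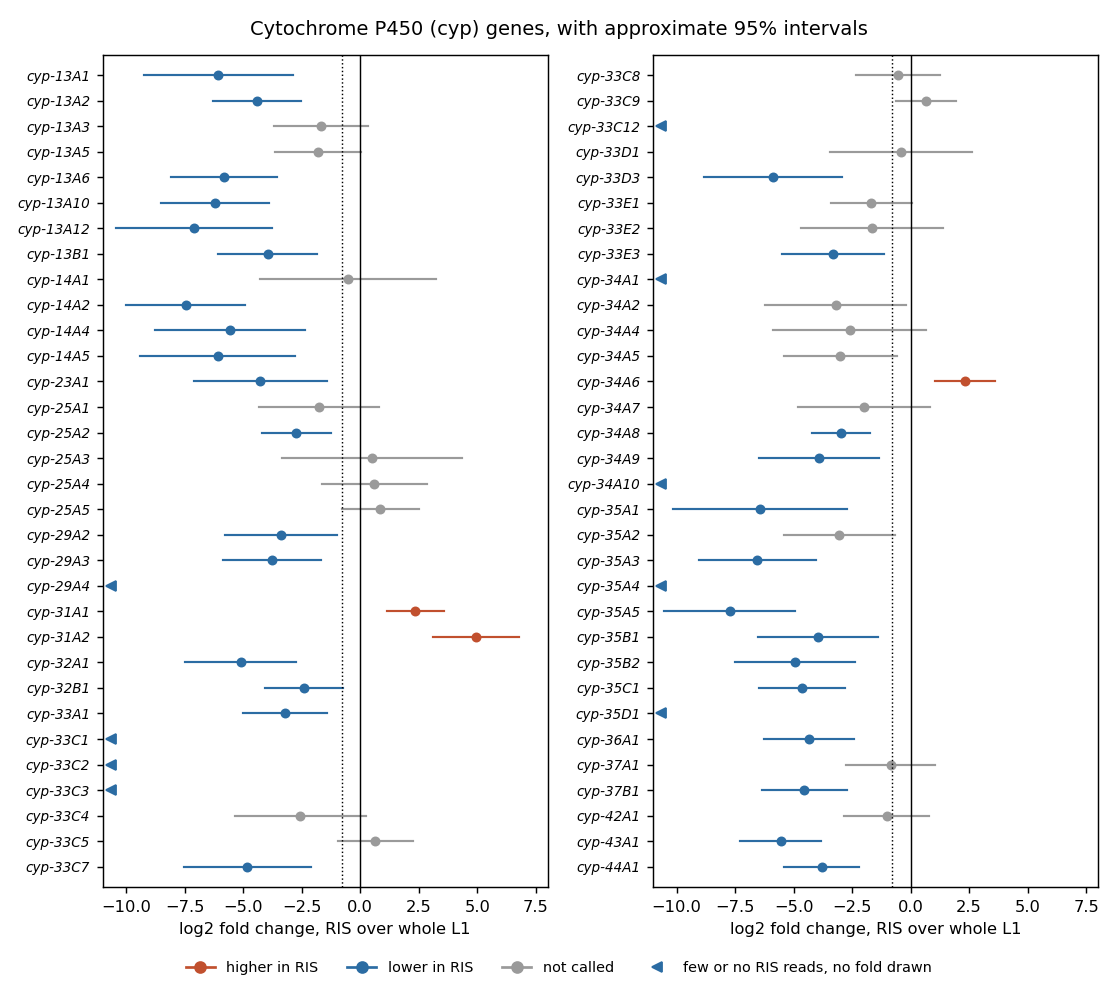
Log2 fold change of RIS over whole L1 larvae (x) for each of 64 cyp genes (rows), as points with approximate 95% intervals; the dotted line is the median of all genes and left-pointing triangles mark few or no RIS reads. The 40 falls are blue, the 3 rises (cyp-31A1, cyp-31A2 and cyp-34A6) are red and the uncalled genes are grey.

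Among short-chain dehydrogenase genes falls were found and no rises. Of 28 dhs genes 12 fell and 0 rose at an adjusted p under 0.05 by the authors' edgeR-format test. At an unadjusted p below 0.05 there were 16 lower and 0 higher, where 3963 and 1600 of all 12072 genes were. Their median log2 fold change was −2.16 in the authors' deposited table, and of the 12 falls dhs-24 lay at few RIS reads. The largest fold with an interval was that of dhs-14 (−4.68, 25.6-fold, interval −6.69 to −2.67, adjusted p = 0.00710) per the authors' deposited table. Close to it were dhs-27 (−4.67, adjusted p = 0.0162) and dhs-7 (−4.53, adjusted p = 0.0184) per the authors' deposited table.

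Among dhs genes with known substrates, dhs-21 encodes an L-xylulose reductase. It fell by 3.13 on the log2 scale (interval −4.53 to −1.72, adjusted p = 0.00792) with a mean of 275 CPM per the authors' deposited table. The peroxisomal enzyme gene dhs-28 shortens the side chains of ascaroside pheromones, and it fell by 2.22 (interval −3.52 to −0.92, adjusted p = 0.0191) per the authors' deposited table. Its call ended against the all-gene median (adjusted p = 0.0808 for dhs-28). The lipid droplet protein gene dhs-3, a marker of intestinal droplets, was not called (−1.23, interval −2.97 to 0.51, adjusted p = 0.239) per the authors' deposited table. Nor was dhs-16, whose product helps to make dafachronic acids, the ligands of the steroid receptor DAF-12 (−0.15, interval −3.72 to 3.41, adjusted p = 0.95) per the authors' deposited table. Its mean was 2.14 CPM, and changes in either direction could not be resolved.

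Further falls had smaller folds. The authors' deposited table gave −3.68 for dhs-20, −3.14 for dhs-13, −2.83 for dhs-5, −2.43 for dhs-18, −2.10 for dhs-4 and −1.84 for dhs-25, at adjusted p from 0.00842 to 0.0440. The weakest of these calls, dhs-13, lay just inside the threshold. Against the all-gene median 6 of 28 dhs genes (21.4%) were lower, a share near the 20.3% of all genes, and dhs-4, dhs-5, dhs-13, dhs-18 and dhs-25 lost their calls along with dhs-28. The dhs genes with folds above 0, none of them called, were dhs-17 (1.43, interval −0.50 to 3.36), dhs-9 (0.61) and dhs-15 (0.58) in the authors' deposited table. Well-expressed members without a call included dhs-22 (−0.97, adjusted p = 0.227, mean 82.5 CPM), dhs-19 (−2.54, adjusted p = 0.0986) and dhs-6 (−0.45, adjusted p = 0.585) per the authors' deposited table.

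Of the 5 flavin monooxygenase genes 2 fell and 0 rose, and 4 lay below 0. The gene fmo-1 fell by 4.80 on the log2 scale (27.8-fold, interval −6.51 to −3.08, adjusted p = 0.00519) per the authors' deposited table. For fmo-4, a gene of the hypodermis with a part in osmoregulation, the authors' deposited table gave −3.15 (interval −5.15 to −1.15, adjusted p = 0.0254), a fall that was not called against the all-gene median (adjusted p = 0.0657). The longevity gene fmo-2, induced in the intestine through HIF-1, NHR-49 and HLH-30, was listed at −3.38 with a wide interval (−7.47 to 0.71, adjusted p = 0.173) per the authors' deposited table. Not called either was fmo-3 (−2.99, interval −5.56 to −0.42, adjusted p = 0.0710) per the authors' deposited table. The fifth, fmo-5, lay on the other side of 0 (2.49, 5.61-fold, interval 0.21 to 4.77, adjusted p = 0.0852) per the authors' deposited table. It was called higher against the all-gene median (adjusted p = 0.0354), and its interval does not overlap those of fmo-1, fmo-3 and fmo-4.

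**Figure D3:**
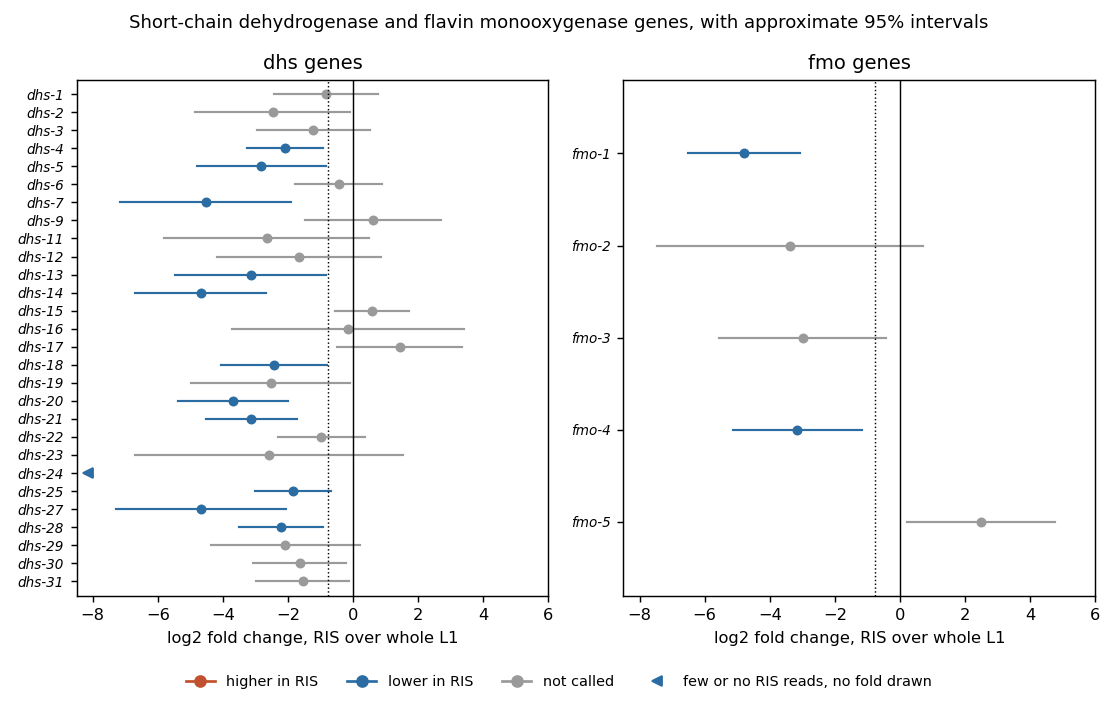
Log2 fold change of RIS over whole L1 larvae (x) for 28 dhs genes (left) and 5 fmo genes (right), as points with approximate 95% intervals; the dotted line is the median of all genes. Blue marks the 12 dhs and 2 fmo genes that fell and grey the uncalled ones, among them fmo-5 at 2.49 in the authors' deposited table.

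Many P450 genes lie side by side on chromosome V, which holds 38 of the 64 cyp genes (59.4%), 12 of the 28 dhs genes (42.9%) and 21% of all genes in the table. Genes of chromosome V were lower in RIS more often than the average, 35.2% of them, and so were the cyp genes there. Of the cyp genes on it 26 of 38 (68.4%) fell, and of those elsewhere 14 of 26 (53.8%). Arrays were defined as members with at most 10 kb between neighbours, which gave 12 arrays with 38 genes. In arrays 22 of 36 cyp genes (61.1%) were lower, and outside them 18 of 28 (64.3%).

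The largest array holds 10 P450 genes, from cyp-35A5 to cyp-34A10, over 36.7 kb at V 3936326 to 3973001 as located by the authors' deposited table, which names no genome build. Within it 6 genes fell and 1 rose. The rise was cyp-34A6 (V 3958160 to 3961358, minus strand), and its neighbours on both sides, cyp-34A5 (−3.0, interval −5.42 to −0.58, adjusted p = 0.0588) and cyp-34A7 (−1.97, interval −4.80 to 0.85, adjusted p = 0.244), were not called per the authors' deposited table. The interval of cyp-34A6 (1.05 to 3.62) does not overlap those of either neighbour. In the array of 5 cyp-13A genes on chromosome II 3 fell, and in that of 4 cyp-33C genes on chromosome V 2 fell. Neighbouring dhs genes differed as well, with dhs-14 lower and dhs-15 uncalled (0.58, interval −0.57 to 1.72) in the authors' deposited table. How the authors counted reads shared by such close relatives is not given in the sources used here, so fold changes within an array are uncertain.

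**Figure D4:**
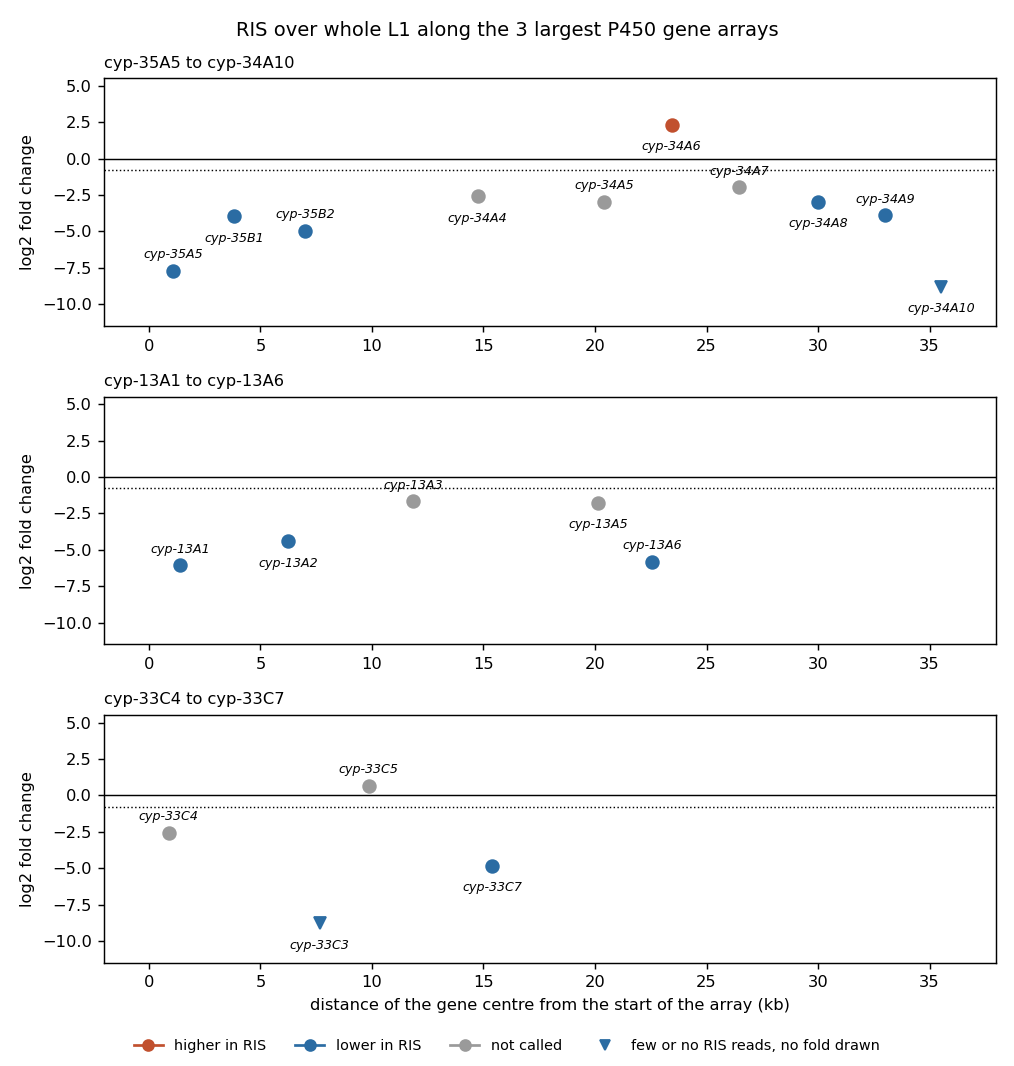
Log2 fold change of RIS over whole L1 larvae (y) against distance from the start of the array in kb (x) for the arrays of 10, 5 and 4 P450 genes; triangles mark few or no RIS reads and have no fold. The red point is cyp-34A6, at 2.34 in the authors' deposited table, and blue points fell.

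Overlap with other genes was read from the Ensembl annotation of WBcel235. In it 19 of the 97 members overlap a protein-coding gene, 11 of them called lower and 0 higher, where 55.7% of all members were lower. Strand use in the counting is not given. Of the 16 such partner genes that the authors' deposited table lists, 4 were lower and 0 higher. Of all genes 26.4% were lower and 9.84% higher. None of cyp-31A1, cyp-31A2 and cyp-34A6 overlaps a protein-coding gene in that annotation. The small nuclear RNA gene B0213.22 overlaps cyp-34A6 by 105 bases on the opposite strand.

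Genes that work with these enzymes were described from lists of known function. The reductase gene emb-8, which supplies electrons to microsomal P450s, was not called (−2.57, interval −4.72 to −0.41, adjusted p = 0.0660) per the authors' deposited table. Of 6 measured genes for electron transfer and heme supply 0 were called by the authors' edgeR-format test in either direction. At an unadjusted p below 0.05 there were 2 lower and 0 higher, where 3963 and 1600 of all 12072 genes were. For heme trafficking the authors' deposited table listed hrg-1 at 0.57 and hrg-3 at −2.37. Set against the all-gene median, hrg-1 was called higher (adjusted p = 0.0431), 1 of these 6 genes, where 16.6% of all genes were.

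Genes linked to the steroid hormone pathway that ends in dafachronic acid were lower in part. Of 7 measured genes outside the members 4 (57.1%) fell and 0 rose, where 26.4% and 9.84% of all genes did. Against the all-gene median 2 (28.6%) were lower, where 20.3% of all genes were. The P450 gene daf-9, which makes dafachronic acid, fell by 4.12 on the log2 scale (interval −6.87 to −1.36, adjusted p = 0.0310) per the authors' deposited table. Upstream, the Rieske oxygenase gene daf-36 fell by 3.31 (adjusted p = 0.0420) per the authors' deposited table. The sterol methyltransferase gene strm-1 fell by 5.71 (adjusted p = 0.00676) in that same authors' deposited table, and the cholesterol transport gene ncr-2 had no RIS reads. Against the all-gene median daf-9 (adjusted p = 0.0619) and daf-36 (adjusted p = 0.0954) were not called. Uncalled were its relative ncr-1 (−0.14), the receptor gene daf-12 (−1.22, adjusted p = 0.0660) and the corepressor gene din-1 (0.20) in the authors' deposited table.

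Peroxisomal enzymes, several of which act with DHS-28, were lower as well. Of 12 measured genes besides dhs-28 6 (50%) fell and 0 rose, where 26.4% and 9.84% of all genes did. Against the all-gene median 6 (50%) were lower, where 20.3% of all genes were. The acyl-CoA oxidase genes acox-1.2 (−6.25, adjusted p = 0.00474), acox-1.4 (−5.2, adjusted p = 0.00381) and acox-3 (−3.50, adjusted p = 0.00660) fell in the authors' deposited table, and acox-1.3 fell to few RIS reads. The import genes prx-5 (−4.49) and prx-10 (−4.29) fell too per the authors' deposited table. The thiolase gene daf-22, which acts after dhs-28 in the same pathway, was not called (−2.41, interval −4.30 to −0.51, adjusted p = 0.0541) per the authors' deposited table.

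Alcohol and aldehyde dehydrogenases carry the oxidation further. Of 14 measured genes 7 fell and 0 rose, among them sodh-2 (−6.02), alh-9 (−3.01), alh-10 (−2.19), alh-8 (−1.88), sodh-1 (−1.69), alh-4 (−1.61) and alh-3 (−1.42) in the authors' deposited table. Against the all-gene median 2 of the 14 were lower, where 20.3% of all genes were. Of 6 measured short-chain dehydrogenase genes without a dhs symbol 1 (16.7%) fell, hsd-3, at few RIS reads. That share lay below the 26.4% of all genes. The essential steroid dehydrogenase gene let-767 was listed at −1.64 (adjusted p = 0.0605) per the authors' deposited table. Of 6 lipid droplet genes besides dhs-3 1 (16.7%) fell, lid-1 (−2.40, adjusted p = 0.0434) per the authors' deposited table, again below 26.4%. Of 6 genes for polyunsaturated fatty acids 1 (16.7%) rose, where 9.84% of all genes did. It was the omega-3 desaturase gene fat-1 (1.96, interval 0.97 to 2.95, adjusted p = 0.0115) per the authors' deposited table. The call on lid-1 ended against the all-gene median (adjusted p = 0.135).

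Regulators of these enzymes, mostly transcription factors, held more rises than falls. Of 17 measured regulators 4 rose and 2 fell, where 9.84% and 26.4% of all genes did. Against the all-gene median 7 were higher and 1 lower, where 16.6% and 20.3% of all genes were. The prolyl hydroxylase gene egl-9 (3.57, interval 2.62 to 4.52, adjusted p = 0.00301) and the gene of its target, the hypoxia factor hif-1 (2.93, interval 1.94 to 3.92, adjusted p = 0.00474) rose in the authors' deposited table. So did hlh-30 (1.84, adjusted p = 0.0107) and nhr-49 (1.74, adjusted p = 0.0299) per the authors' deposited table. The falls were nhr-176, which regulates cyp-35D1 (−7.10, interval −9.27 to −4.94, adjusted p = 0.00394), and the aryl hydrocarbon receptor gene ahr-1 (−4.46, adjusted p = 0.0273) per the authors' deposited table. The call on ahr-1 ended against the all-gene median (adjusted p = 0.0525). The xenobiotic receptor gene nhr-8 was not called (−2.06, adjusted p = 0.0850), nor was nhr-46, which acts with cyp-36A1 (−0.77, adjusted p = 0.264) per the authors' deposited table.

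**Figure D5:**
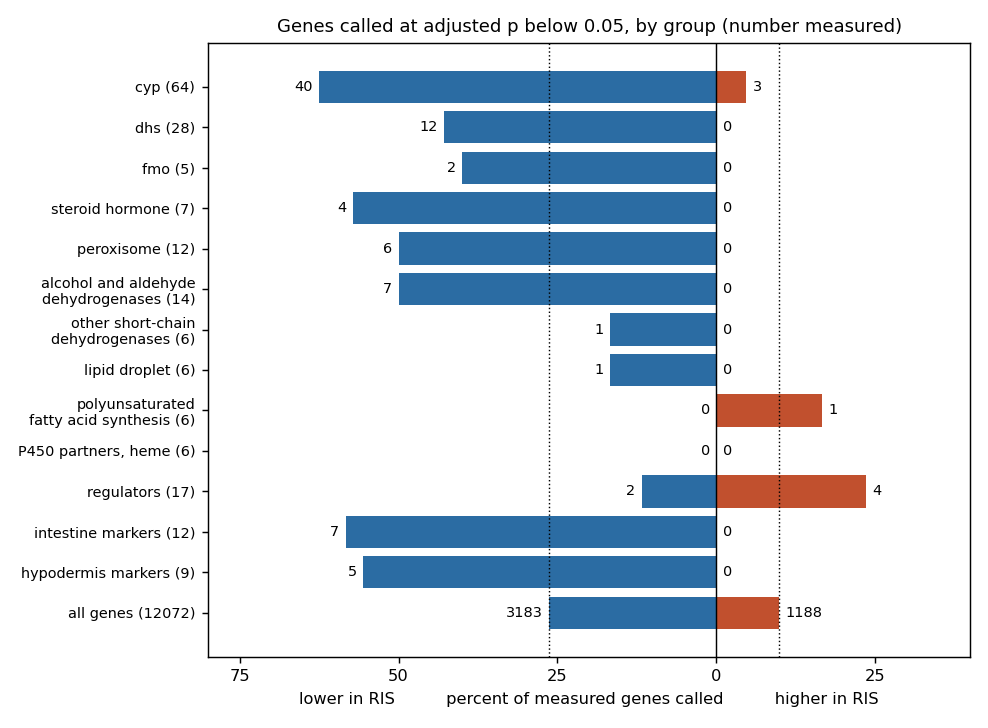
Percent of measured genes lower (left, blue) and higher (right, red) in RIS at an adjusted p below 0.05, for the 3 enzyme families, genes that work with them, tissue markers and all genes; numbers beside bars count genes and dotted lines show the shares of all genes. The cyp bar reaches 62.5% on the lower side, and regulators have 4 rises against 2 falls.

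The calls on cyp-23A1, cyp-29A2, cyp-32B1, cyp-33E3, cyp-34A9 and cyp-35B1 ended against the all-gene median, as did those on dhs genes and fmo-4 named above.

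Markers of several other tissues were also lower, while 0 of 5 germline markers were called. Of 12 intestinal markers 7 fell and 0 rose (median log2 fold change −2.30), and of 9 measured hypodermal markers 5 fell and 0 rose (median −3.89) in the authors' deposited table. Against the all-gene median 3 intestinal (25%) and 5 hypodermal markers (55.6%) were lower, where 20.3% of all genes were. On that scale the intestinal share lay near that of all genes. None of these markers lay at few RIS reads. Of 6 pharyngeal markers 5 fell and 1 rose, and of 5 measured muscle markers 4 fell and 0 rose. Of all genes 26.4% fell and 9.84% rose. Against the all-gene median 5 pharyngeal (83.3%) and 4 muscle markers (80%) were lower, and 1 of each was higher. The intestinal identity gene elt-2 (−2.68, adjusted p = 0.0254) and the hypodermal gene elt-3 (−5.69, adjusted p = 0.00382) both fell in the authors' deposited table. The call on elt-2 ended against the all-gene median (adjusted p = 0.0787). The part of these tissues in the falls was not tested. In bulk libraries fewer cells of a type and less RNA per cell cannot be told apart.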

How the data were processed

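RNA of 6 labelled libraries, 3 of RIS cells and 3 of whole larvae grouped by title, had been compared by the authors in 1 deposited table of 12 columns. Its columns, per the file headers, are a log2 fold change (RIS over whole larvae), a mean log2 CPM over both groups, an F score, a p-value and its false discovery rate, the format of edgeR's quasi-likelihood test. The log2 values, the F score and the p-value were used as the authors deposited them, and calls are theirs at an adjusted p below 0.05. Aligner, counter, build and filters are not stated by any source used here, and no depth per library can be given. Because the table has no counts, no count model was fitted, and 0 columns per library were left unused.

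Mean CPM is 2 to the power of the log2 CPM. Denominator degrees of freedom (6.76 for 11902 genes, 5.76 for 170 without RIS reads) were recovered from F and p. A standard error, taken as the size of the log2 fold change divided by the root of F, gave approximate 95% intervals and a test against the all-gene median. The 856 genes called few-read here (genes with none included) were all more than 8-fold lower in RIS, by definition. Their log2 fold change plus log2 CPM was up to 4.53 above that of genes without reads, about the position of 3 reads. The steps were tested on simulated data.

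Members and lists were chosen with earlier results of these data known. Named genes are all called members, all fmo genes, the 6 uncalled members highest in mean CPM, members with a stated role, and called genes of the companion lists with daf-9, daf-36, emb-8, daf-22 and let-767. Other genes were named after their values were seen. All 97 member IDs matched Ensembl release 115 (WBcel235), on the same chromosome, 62 with a shared start or end. It gives 15 further cyp, dhs or fmo symbols, not analysed here. Work was done in Python 3.11.15 with scipy 1.17.1, pandas 2.3.3, matplotlib 3.10.9 and numpy 2.4.6.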

Additional observations from a re-analysis of the deposited data

How the results depend on the processing

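Requiring at least a 2-fold change, or adding daf-9 and short-chain dehydrogenase genes without a dhs symbol, kept each count within 1.5 times. At an adjusted p below 0.01 there were 23 members lower and 1 higher (cyp 18 and 1, dhs 4 lower, fmo 1 lower). Of the 101 named genes, which include uncalled ones with no call to lose, 48 lost their calls. Among genes above the median of mean expression, where fewer genes are tested, 31 members were lower (21 cyp). Relative to the median of all genes 6 dhs and 1 fmo genes were lower and 1 fmo gene was higher. The median log2 fold change of the members was −2.78 above that median of expression, −2.73 without genes at few RIS reads, which removes low values by construction, and −2.26 relative to all genes. Relative to all genes 3 uncalled members turned to the other side of 0, cyp-33C8 (0.24, adjusted p = 0.838), dhs-16 (0.63, adjusted p = 0.780) and dhs-6 (0.33, adjusted p = 0.685). Without genes at few RIS reads dhs-13 (adjusted p = 0.0513) and lid-1 (adjusted p = 0.0507) lost their calls. No paired analysis was possible because values per library are lacking, and leaving out libraries or renormalizing counts was not run for the same reason. Depth is unknown.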
